A study of Mus musculus with 8 samples.

Results

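The collagen genes were taken as every gene in the deposited count table whose symbol has the form Col, a type number, a and a chain number, which gave 44 of 23420 genes. They were sorted into 11 fibrillar collagens, 6 basement membrane collagens (type IV), 9 FACITs (fibril-associated collagens with interrupted triple helices) and 18 others. A filter on low counts kept 32 of the 44 for testing, namely 10 fibrillar, 4 basement membrane, 5 FACIT and 13 other collagens. The cells were C2C12, a line of mouse myoblasts, labelled either WT or as overexpressing AUF1, the AU-rich element binding protein encoded by Hnrnpd. All 8 libraries came from cells grown in DMEM with 10% fetal bovine serum and then held for 48 h in DMEM with 2% horse serum, the change that starts differentiation. Total RNA and RNA titled High, read here as the heavy polysome fraction, were sequenced from each genotype, with 2 libraries numbered 1 and 2 in the titles of each of 4 groups. The sample descriptions and the columns of the count table call the second library of each group Rep3, and replicate 2 here follows the titles. The labels name no control vector for the WT cells and do not say if the AUF1 cells are a pool or 1 clone, so that an effect of AUF1 and a line difference cannot be told apart.

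Collagens are secreted proteins whose chains wind into a triple helix, which then assembles into fibrils, sheets or beaded filaments outside the cell. Fibrillar types I, III and V make up the bulk of the connective tissue around muscle fibers, and type IV forms the network of the basement membrane that wraps each fiber. FACITs decorate the surface of fibrils, and type VI links fibrils to the basement membrane. Myoblasts and the fibroblasts of muscle both make collagen, and AUF1 is known for binding AU-rich stretches in the 3′ untranslated region (3′ UTR) of mRNAs.

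Libraries held 25281224 to 34917660 counts assigned to genes. Levels are given as CPM, that is counts relative to library size, scaled by TMM, the trimmed mean of M-values. Hnrnpd stood at 64.2 to 130.7 CPM in the 4 WT libraries and at 396.8 to 549.1 CPM in the 4 AUF1 libraries, so the labels and the overexpressed gene matched. The summed level of 8 myogenic markers was 1898 to 2491 CPM in WT libraries and 5475 to 9633 CPM in AUF1 libraries. Of the WT polysome libraries, replicate 1 stood apart. It held 58 genes with at least 30 counts there and at most 6 in any other library, and no other library had such a gene. Its epithelial markers (Epcam, Krt8, Krt18 and Cdh1) summed to 40.2 CPM, against 0.211 to 2.45 CPM in the other 7 libraries. Polysome changes of the called collagens are also given with single libraries left out, this one among them. Nothing in the labels ties the 2 libraries of a group to separate cultures. The p-values therefore rest on library-to-library spread only, part of which may be technical.

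Collagen mRNA made up 1.16% and 0.324% of gene counts in WT total RNA (replicates 1 and 2) and 0.530% and 0.170% in AUF1 total RNA. On polysomes it was 0.838% and 0.365% in WT and 0.305% and 0.176% in AUF1 cells. In each RNA fraction, AUF1 cells had the lower share within both replicate numbers, but the groups overlapped in total RNA, since WT replicate 2 lay under AUF1 replicate 1. In polysome RNA the lower WT library still lay above both AUF1 libraries. In all 4 groups replicate 1 had the higher share. Because these are bulk samples, fewer cells making collagen and less collagen mRNA per cell cannot be told apart.

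**Figure D1:**
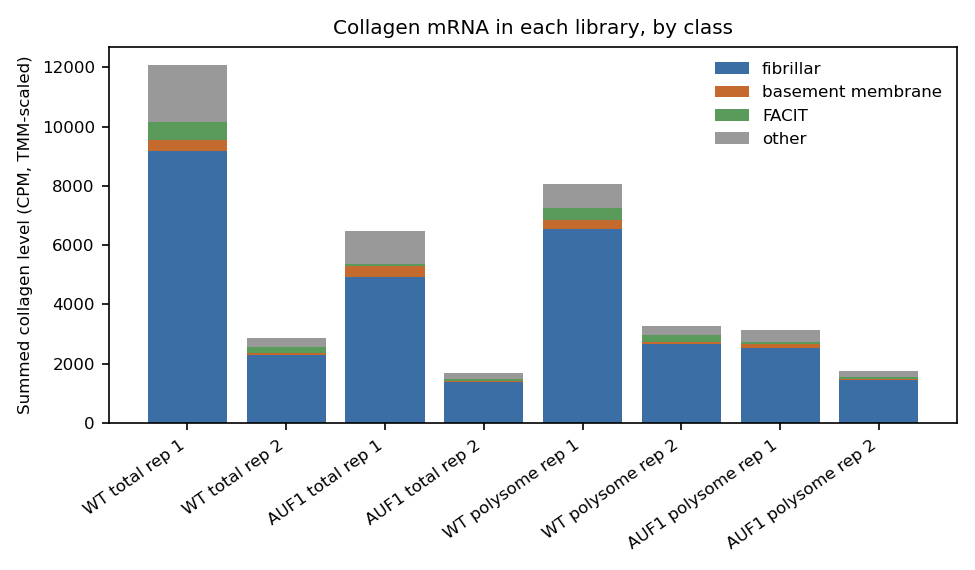
Summed level of the 44 collagens in each library (y axis, TMM-scaled CPM), stacked by class. WT total replicate 1 is the tallest bar at 12080 CPM and AUF1 total replicate 2 the shortest at 1693 CPM, and fibrillar collagens fill most of every bar.

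Fibrillar chains carried most of the signal, with 9175 of 12080 CPM in WT total replicate 1 and 1368 of 1693 CPM in AUF1 total replicate 2. Per kilobase of annotated exon, the mean level over the 8 libraries was highest for Col1a2 (106.0 CPM per kb) and Col3a1 (103.7 CPM per kb). Col5a1 (68.9 CPM per kb), Col1a1 (55.1 CPM per kb), Col6a1 (52.5 CPM per kb) and Col5a2 (47.5 CPM per kb) followed. A second step down led to Col6a2, Col5a3, Col18a1, Col12a1, Col4a1 and Col4a2, at 10.7 to 18.03 CPM per kb. Among neighbors in this order of the collagens with a mean of at least 10 CPM, Col5a2 lay above Col6a2 and Col6a3 above Col16a1 in all 8 libraries. The other neighboring pairs were in this order in 2 to 7 of the 8 libraries. The order depends on the gene model. Per kilobase of the longest transcript, Col1a2 (246.3 CPM per kb) lay clearly above Col3a1 (182.9 CPM per kb). By that length Col5a2 (68.8 CPM per kb) came before Col1a1 (60.95 CPM per kb) and Col6a1 (56.1 CPM per kb), and Col6a2 stood at 30.6 CPM per kb. A mean of at least 10 CPM was reached by 15 collagens, the lowest being Col16a1 at 11.8 CPM, and the next gene below the limit was Col8a2 at 9.13 CPM.

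**Figure D2:**
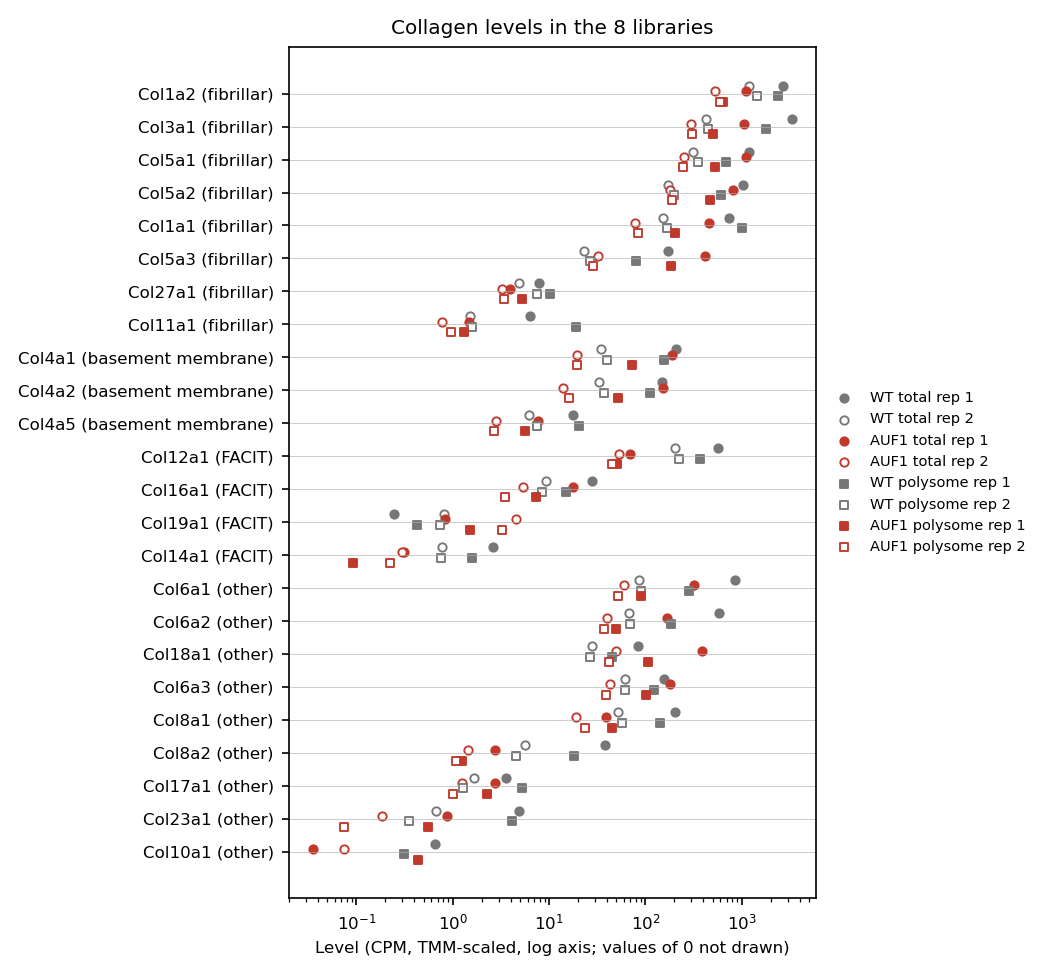
Level of the 24 collagens described one by one (x axis, TMM-scaled CPM, log axis) in each library. Gray marks are WT and red marks AUF1, circles total RNA and squares polysome RNA, filled for replicate 1 and open for replicate 2. Open marks lie left of filled ones for most genes, and Col12a1 and Col8a2 have all red marks left of all gray ones.

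The first comparison asked which collagens differed between AUF1 and WT cells in total and in polysome RNA. Most tested collagens stood lower in AUF1 cells, but the planned model, which ignores the replicate number, called none of them. In edgeR's quasi-likelihood test, 0 of 32 collagens passed an adjusted p of 0.05 in total RNA, where 1.02% of all 13167 genes did, and 0 of 32 in polysome RNA, where 0.349% did. At an unadjusted p under 0.05 there were 5 of 32 collagens in total RNA and 6 in polysome RNA. Of all 13167 genes 1807 and 1862 passed the same limit. DESeq2 without the number called 2 lower in total RNA (Col12a1 and Col8a2, background 2.75%) and 3 lower in polysome RNA (those and Col14a1, background 2.86%). The median SE of a collagen's log2 fold change was 1.01 in total and 0.96 in polysome RNA in this model, against 0.43 for all genes. With the number in the model it was 0.43 for collagens in both fractions and 0.28 for all genes. With 1 library left out, the planned model's median log2 change of collagens ran from -1.88 to 0.46 in total RNA. It thus changed direction there, and ran from -1.76 to -0.13 in polysome RNA. With the number in the model these ranges were -0.88 to -0.43 and -1.19 to -0.64.

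Read within a replicate number, more collagens passed. With the number as an additive block, edgeR called 7 collagens lower in AUF1 cells and 2 higher in total RNA, where 6.15% of all genes were called lower and 6.99% higher. In polysome RNA it called 11 lower and 1 higher, where 6.33% of all genes were called lower and 6.70% higher. The 7 lower in total RNA were Col12a1, Col8a1, Col8a2, Col1a2, Col4a5, Col23a1 and Col14a1, and all 7 were also among the 11 on polysomes, with Col1a1, Col11a1, Col16a1 and Col27a1 added. Col19a1 was called higher in both fractions and Col18a1 in total RNA. In what follows, "fell" and "rose" refer to these calls of the block model, none of which the planned model shares. DESeq2 with the block called 9 lower and 2 higher in total RNA (background 9.61% and 8.34%) and 13 lower and 2 higher on polysomes (9.33% and 9.02%).

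The median log2 change of the 32 collagens in total RNA was -0.67 within replicate 1 and -0.52 within replicate 2, against -0.01 and -0.03 for all tested genes. In polysome RNA it was -1.06 and -0.67, against -0.00 and -0.02. In total RNA 20 of 32 collagens were below 0 in both numbers and 8 above 0 in both, whereas 38.4% of all genes were below and 35.1% above in both. In polysome RNA 22 were below in both and 7 above in both, against 40.5% and 39.0% of all genes. Both AUF1 libraries lay under both WT libraries for 10 of 32 collagens in total RNA (17.8% of all genes) and for 10 in polysome RNA (21.3%). Both lay above for 5 in total RNA (22.5%) and 5 in polysome RNA (23.6%). The total and polysome comparisons use different libraries of the same cell lines and so do not count as independent evidence on the lines.

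**Figure D3:**
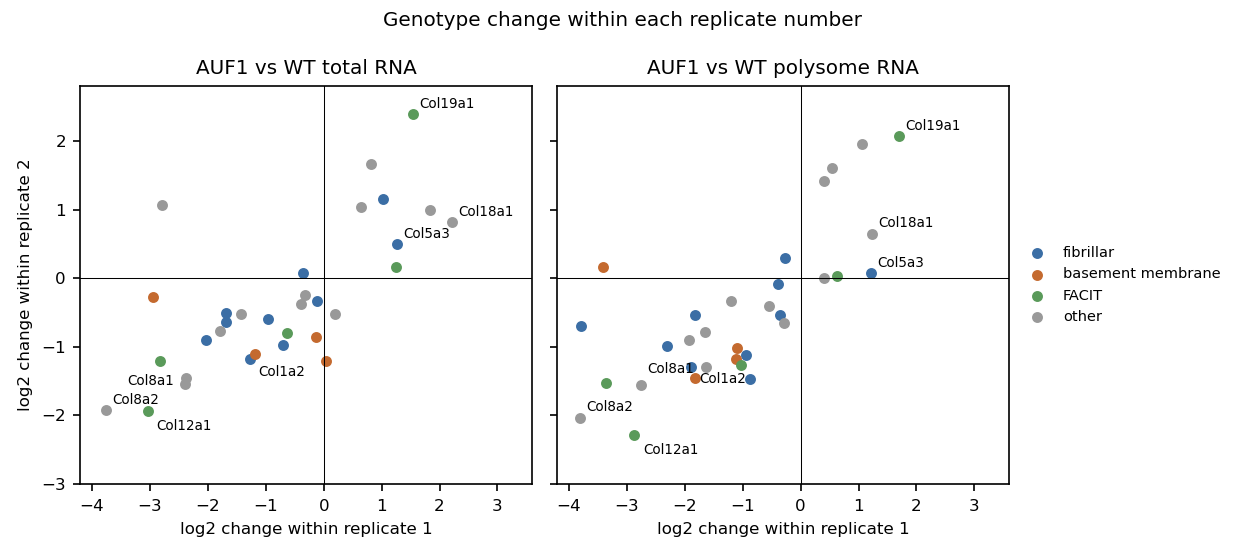
Change from WT to AUF1 within replicate 2 (y axis, log2) against the change within replicate 1 (x axis, log2) for the 32 tested collagens, colored by class, in total RNA (left) and polysome RNA (right). Most points lie at the lower left, below 0 in both numbers, with Col12a1 and Col8a2 at its far end, and Col19a1 and Col18a1 lie in the upper right.

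**Figure D4:**
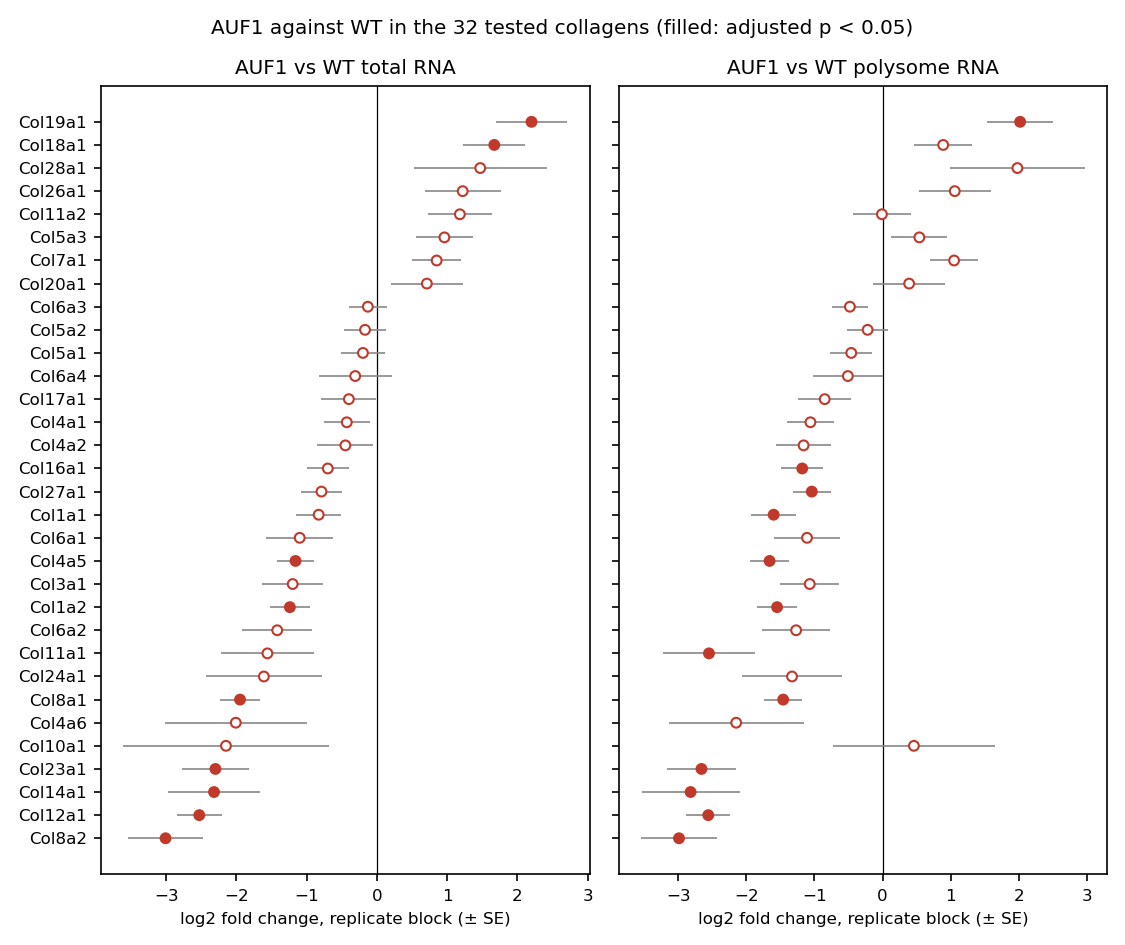
Log2 fold change of AUF1 over WT with its SE (x axis) for the 32 tested collagens in the model with the replicate number as a block, in total RNA (left) and polysome RNA (right). Filled points passed an adjusted p of 0.05, which 9 collagens did in total RNA and 12 in polysome RNA.

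These calls leaned on single libraries. The share of all genes called is not given for the fits with a library left out. Each of them has 1 library in 1 group, so adjusted p-values with a library left out are not comparable with those of the full fit. The counts below, and such p-values for single genes, therefore show only how the calls moved. In the block model the number of collagens called in total RNA was 1 and 5 without WT total replicates 1 and 2, and 8 and 9 without AUF1 total replicates 1 and 2. It was 15 and 16 without WT polysome replicates 1 and 2, and 11 and 12 without AUF1 polysome replicates 1 and 2. In polysome RNA it was 1 and 12 without AUF1 polysome replicates 1 and 2, and 12 without either WT polysome library. It was 19 and 16 without AUF1 total replicates 1 and 2, and 8 without either WT total library. Without WT polysome replicate 1, the library that stood apart, edgeR's block model lost the polysome calls of Col11a1, Col14a1, Col23a1 and Col27a1. That fit has 1 WT polysome library, so calls kept there are not shown to be firm. With any 1 library left out, the polysome log2 change ran from -2.93 to -2.24 for Col12a1 and -2.05 to -1.16 for Col1a2. It ran from -3.87 to -2.12 for Col8a2, -1.72 to -1.23 for Col8a1 and -2.26 to -1.06 for Col1a1. For Col4a5 it was -1.86 to -1.45, for Col16a1 -1.49 to -0.83 and for Col19a1 1.52 to 2.48. The 4 lost calls ran between -4.07 (Col14a1) and -0.98 (Col27a1). Col12a1 alone was called in both fractions whichever of the 8 libraries was left out.

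Among fibrillar collagens, Col1a2 fell in both fractions and Col1a1, Col11a1 and Col27a1 fell on polysomes, while the type III and type V chains were not called. Of the 10 tested, 1 was called lower in total RNA, a share near the 6.15% of all genes, and 4 in polysome RNA (6.33% of all genes), with medians of -0.81 and -1.05. Col1a2, the minor chain of type I collagen and the collagen with the most counts, stood at 2669 and 1182 CPM in WT total RNA (replicates 1 and 2) and at 1100 and 521.8 CPM in AUF1 total RNA. On polysomes the WT libraries gave 2374 and 1456 CPM and the AUF1 libraries 641.7 and 596.1 CPM. Both AUF1 libraries lay under both WT libraries in each fraction, by a narrow gap in total RNA. The changes within numbers 1 and 2 were -1.28 and -1.18 in total RNA and -1.89 and -1.29 on polysomes. In edgeR's block model Col1a2 was 2.35-fold lower in total RNA (log2 -1.24 ± 0.29 SE, adjusted p = 0.0220) and 2.93-fold lower on polysomes (log2 -1.55 ± 0.29, adjusted p = 0.00835). The planned model gave adjusted p = 0.373 and 0.247. The total RNA call was lost without WT total replicate 1 (adjusted p = 0.213) or WT total replicate 2 (adjusted p = 0.0619), and the polysome call without AUF1 polysome replicate 1 (adjusted p = 0.101).

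Col1a1, the major chain of type I collagen, stood at 741.3 and 151.7 CPM in WT total RNA and at 452.6 and 77.2 CPM in AUF1 total RNA. On polysomes the WT libraries gave 1015 and 165.7 CPM and the AUF1 libraries 204.8 and 83.5 CPM. AUF1 was lower within each number, but the groups overlapped in both fractions because replicate 2 of WT lay under replicate 1 of AUF1. Col1a1 fell 3.03-fold on polysomes in edgeR's block model (log2 -1.60 ± 0.33, adjusted p = 0.0125, and 0.118 without AUF1 polysome replicate 1). In total RNA it stood at log2 -0.83 ± 0.32 (adjusted p = 0.121).

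Col3a1, the chain of type III collagen, stood at 3357 and 426.4 CPM in WT total RNA and at 1045 and 298.5 CPM in AUF1 total RNA. On polysomes the values were 1767 and 442.9 CPM in WT and 501.2 and 304.9 CPM in AUF1 cells. The WT replicate 1 libraries were far above all others, and the groups overlapped in both fractions. Col3a1 was not called in edgeR's block model (log2 -1.20 ± 0.43, adjusted p = 0.102 in total RNA, and log2 -1.07 ± 0.43, adjusted p = 0.138 on polysomes). DESeq2 with the block gave adjusted p = 0.0298 in total RNA.

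Type V collagen forms the core of type I fibrils and limits their width. Col5a1 stood at 1193 and 315.7 CPM in WT total RNA and 1107 and 251.4 CPM in AUF1 total RNA, with 680.3 and 355.2 CPM against 534.1 and 245.3 CPM on polysomes. Col5a2 stood at 1027 and 171.2 CPM against 805.1 and 181.4 CPM in total RNA, and at 610.5 and 200.1 CPM against 464.0 and 188.4 CPM on polysomes. For both chains the replicate numbers were further apart than the genotypes. Their log2 changes in the block model were -0.20 ± 0.31 (Col5a1) and -0.17 ± 0.30 (Col5a2) in total RNA, with adjusted p = 0.716 and 0.758.

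The third type V chain, Col5a3, ran the other way. It stood at 171.8 and 22.9 CPM in WT total RNA and at 415.6 and 32.3 CPM in AUF1 total RNA, and at 79.5 and 26.9 CPM against 183.4 and 28.3 CPM on polysomes. AUF1 was higher within each number, clearly within replicate 1 (log2 1.27 in total and 1.21 on polysomes) and by 0.50 and 0.07 within replicate 2. The groups overlapped and Col5a3 was not called in the block model (log2 0.96 ± 0.41, adjusted p = 0.157 in total RNA, and 0.54 ± 0.41, adjusted p = 0.442 on polysomes).

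The remaining fibrillar members were scarce. Col27a1, a short fibrillar collagen best known from cartilage, stood at 7.82 and 4.88 CPM against 3.96 and 3.22 CPM in total RNA and at 10.2 and 7.52 CPM against 5.28 and 3.43 CPM on polysomes. Its groups did not overlap, and it fell 2.05-fold on polysomes (log2 -1.04 ± 0.28, edgeR block adjusted p = 0.0423), a call that held in 2 of the 8 fits with a library left out. The adjusted p was 0.200, 0.218, 0.177 and 0.214 without AUF1 polysome replicates 1 and 2 and WT polysome replicates 1 and 2, and 0.0770 and 0.0869 without WT total replicates 1 and 2. Col11a1, a minor chain of cartilage fibrils, stood at 6.28 and 1.51 CPM against 1.47 and 0.777 CPM in total RNA and at 18.9 and 1.59 CPM against 1.31 and 0.959 CPM on polysomes. The single high value was in WT polysome replicate 1, the library that stood apart. Col11a1 fell on polysomes with it (log2 -2.55 ± 0.68, edgeR block adjusted p = 0.0381) and was not called without it (adjusted p = 0.313). It was also not called without AUF1 polysome replicate 1 (adjusted p = 0.318) or either WT total library (adjusted p = 0.0621 and 0.0612). Col11a2 and Col24a1 had means of 0.981 and 0.253 CPM and were not called.

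In the basement membrane class Col4a5 fell in both fractions, and the 2 abundant chains Col4a1 and Col4a2 were not called. Of 4 tested, 1 was called lower in each fraction (6.15% and 6.33% of all genes), with medians of -0.81 in total and -1.41 in polysome RNA. Col4a1 and Col4a2 make the common type IV network and are transcribed away from each other from neighboring starts. Col4a1 lies at chr8:11198423-11312826 on the minus strand and Col4a2 at chr8:11312805-11449287 on the plus strand (GENCODE M21 on mm10), so that their annotated exons share 22 bases, where reads of the 2 genes cannot be told apart without strand. Their promoter windows, from 250 bases before to 50 bases after the RefSeq start (GRCm38.p6), share 78 bases and are shown because the pair kept a near-fixed ratio in all libraries. Capitals mark the GC box GGGCGG or its reverse complement CCGCCC, and each line reads 5′ to 3′ on the gene's own strand.
Col4a1 promoter, chr8:11312777-11313076, minus strand: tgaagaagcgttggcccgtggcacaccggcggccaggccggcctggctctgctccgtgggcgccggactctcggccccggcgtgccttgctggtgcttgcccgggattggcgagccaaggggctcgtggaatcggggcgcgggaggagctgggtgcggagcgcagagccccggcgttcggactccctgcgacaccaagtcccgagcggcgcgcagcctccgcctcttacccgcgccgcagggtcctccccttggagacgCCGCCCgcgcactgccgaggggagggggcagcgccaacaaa
Col4a2 promoter, chr8:11312555-11312854, plus strand: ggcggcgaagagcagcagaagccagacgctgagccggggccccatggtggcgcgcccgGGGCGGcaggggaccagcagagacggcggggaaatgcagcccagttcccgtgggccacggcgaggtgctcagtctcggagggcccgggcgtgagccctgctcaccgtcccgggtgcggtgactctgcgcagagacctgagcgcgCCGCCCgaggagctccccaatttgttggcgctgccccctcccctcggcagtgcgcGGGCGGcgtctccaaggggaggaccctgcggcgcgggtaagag

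Col4a1 stood at 209.4 and 34.9 CPM against 190.2 and 19.3 CPM in total RNA and at 156.6 and 40.0 CPM against 73.2 and 19.7 CPM on polysomes. Col4a2 stood at 148.3 and 32.7 CPM against 152.7 and 14.1 CPM in total RNA and at 112.4 and 36.9 CPM against 51.8 and 16.2 CPM on polysomes. Both chains differed more between the replicate numbers than between genotypes, and in replicate 1 of total RNA Col4a2 was level (log2 0.04). On polysomes the 2 chains were lower within both numbers, by log2 -1.10 and -1.02 for Col4a1 and -1.12 and -1.18 for Col4a2. The edgeR block model gave adjusted p = 0.0685 and 0.0899 there, and DESeq2 with the block 0.0211 and 0.0296.

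Col4a5, a chain of the tougher type IV network, stood at 17.7 and 6.15 CPM against 7.74 and 2.81 CPM in total RNA and at 20.3 and 7.46 CPM against 5.69 and 2.69 CPM on polysomes. AUF1 libraries lay lower within both numbers, and on polysomes the groups did not overlap. It fell 2.24-fold in total RNA (log2 -1.16 ± 0.27, edgeR block adjusted p = 0.0230) and 3.15-fold on polysomes (log2 -1.66 ± 0.28, adjusted p = 0.00495). These calls were lost without WT total replicate 1 (0.207) or 2 (0.1195) in total RNA and without AUF1 polysome replicate 1 (0.0752) on polysomes. Col4a6 had a mean of 0.597 CPM and was not called.

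The FACITs held the collagen with the firmest change. Of 5 tested, 2 were called lower and 1 higher in total RNA (6.15% and 6.99% of all genes), and 3 lower and 1 higher in polysome RNA (6.33% and 6.70%), with medians of -0.70 and -1.18. Col12a1, the type XII chain that coats fibrils in tendon, ligament and the muscle sheath, is encoded at chr9:79598991-79718831 on the minus strand. Its 3′ UTR of 2178 bases holds the motif TTATTTATT, a core often used to define AU-rich elements, 2124 bases after the stop codon. The site is shown because AUF1 binds such stretches and Col12a1 had the most stable fall, and 3 other tested collagens with the motif are set beside it. Of these 3, Col8a1 fell, and Col3a1 and Col10a1 were not called by genotype in edgeR's block model. The motif was in 12.5% of tested collagens and 8.3% of all tested genes with such a region, and binding was not tested. Capitals mark the motif, and sequences are from mm10, 5′ to 3′ on the transcript strand.
Col12a1 site, chr9:79599028-79599054, minus strand: tgccttataTTATTTATTtctgaaaca
Col8a1 site, chr16:57624845-57624871, minus strand: tcttccaacTTATTTATTggttgttac
Col3a1 site, chr1:45348837-45348863, plus strand: aaattccagTTATTTATTtccaaactt
Col10a1 site, chr10:34396943-34396969, plus strand: gaaaagacaTTATTTATTtatgctctg

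Col12a1 stood at 562.8 and 205.2 CPM in WT total RNA and at 68.5 and 53.4 CPM in AUF1 total RNA. On polysomes the WT libraries gave 372.8 and 221.5 CPM and the AUF1 libraries 51.0 and 45.2 CPM. All 4 AUF1 libraries lay far under all 4 WT libraries, whose lowest value was 205.2 CPM. The changes within numbers 1 and 2 were -3.04 and -1.94 in total RNA and -2.87 and -2.29 on polysomes. Col12a1 fell 5.79-fold in total RNA (log2 -2.53 ± 0.32, edgeR block adjusted p = 0.00121) and 5.90-fold on polysomes (log2 -2.56 ± 0.32, adjusted p = 0.00126). With 1 library left out, the log2 change ran from -3.01 to -2.07 in total RNA and from -2.93 to -2.24 on polysomes. The planned model missed the threshold (adjusted p = 0.0958 and 0.101), and DESeq2 without the block passed it (9.45e-05 and 0.000182).

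Col16a1, a FACIT found beside fibrils and basement membranes, stood at 27.8 and 9.38 CPM against 17.9 and 5.37 CPM in total RNA and at 14.9 and 8.54 CPM against 7.30 and 3.50 CPM on polysomes. It was lower in AUF1 within both numbers and without overlap on polysomes, where it fell 2.26-fold (log2 -1.18 ± 0.31, edgeR block adjusted p = 0.0346). The call held in 3 of the 8 fits with a library left out, with adjusted p up to 0.264 without WT polysome replicate 2. The other losses were at 0.247 and 0.0961 without AUF1 polysome replicates 1 and 2 and at 0.0605 and 0.0662 without WT total replicates 1 and 2. Col20a1 had a mean of 0.712 CPM and was not called.

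Col14a1, a FACIT of mature fibrils, was near the lower edge of detection, with 65 and 22 counts in WT total RNA, 9 and 8 in AUF1 total RNA, 56 and 24 on WT polysomes and 3 and 6 on AUF1 polysomes. All AUF1 libraries had fewer counts than all WT libraries. It fell in total RNA (log2 -2.32 ± 0.66, edgeR block adjusted p = 0.0466) and on polysomes (log2 -2.82 ± 0.72, adjusted p = 0.0324). It lost the total RNA call without AUF1 total replicate 1 (0.212) or WT total replicates 1 (0.404) and 2 (0.0632). It lost the polysome call without AUF1 polysome replicate 1 (0.332) or WT polysome replicate 1 (0.0572).

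Col19a1, a FACIT found in basement membrane zones, was the one collagen called higher in AUF1 cells in both fractions and the one called lower in replicate 1 than in replicate 2. It had 6 and 23 counts in WT total RNA, 24 and 122 in AUF1 total RNA, 15 and 23 on WT polysomes and 49 and 89 on AUF1 polysomes. AUF1 libraries lay above WT libraries in both fractions, by 1 count at the nearest pair in total RNA before scaling. It rose 4.60-fold in total RNA (log2 2.20 ± 0.51, edgeR block adjusted p = 0.0222) and 4.04-fold on polysomes (log2 2.02 ± 0.49, adjusted p = 0.0264). The total RNA call was lost without AUF1 total replicate 2 (0.139) or WT total replicates 1 (0.203) and 2 (0.181). The polysome call held in 3 of the 8 fits with a library left out and was lost without WT polysome replicate 2 (0.194), AUF1 polysome replicates 1 (0.184) and 2 (0.0576), and WT total replicates 1 (0.0627) and 2 (0.0502).

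Among the other collagens both type VIII chains fell, the type VI chains were not called and Col18a1 rose in total RNA. Of 13 tested, 3 were called lower and 1 higher in total RNA (6.15% and 6.99% of all genes) and 3 lower on polysomes (6.33%), with medians of -0.40 and -0.51. Type VIII is a short-chain collagen that forms open lattices, and its 2 chains lie on different chromosomes. Their RefSeq promoter windows (GRCm38.p6) are shown because the 2 genes fell together. Capitals mark GC boxes on either strand, of which each window holds 4.
Col8a1 promoter, chr16:57754688-57754987, minus strand: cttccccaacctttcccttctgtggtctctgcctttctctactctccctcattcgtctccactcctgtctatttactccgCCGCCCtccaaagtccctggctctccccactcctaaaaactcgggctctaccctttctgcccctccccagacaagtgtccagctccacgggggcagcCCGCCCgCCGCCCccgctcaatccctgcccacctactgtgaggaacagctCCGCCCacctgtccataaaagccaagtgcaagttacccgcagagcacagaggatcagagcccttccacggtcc
Col8a2 promoter, chr4:126286544-126286843, plus strand: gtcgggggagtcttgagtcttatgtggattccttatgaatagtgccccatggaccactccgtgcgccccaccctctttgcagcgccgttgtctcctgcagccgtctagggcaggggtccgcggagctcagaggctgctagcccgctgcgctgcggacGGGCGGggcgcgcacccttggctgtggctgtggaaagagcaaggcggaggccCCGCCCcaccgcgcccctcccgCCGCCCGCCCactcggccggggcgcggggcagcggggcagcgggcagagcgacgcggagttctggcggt

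Col8a1 stood at 200.6 and 52.2 CPM in WT total RNA and at 38.6 and 18.9 CPM in AUF1 total RNA. On polysomes the WT libraries gave 141.7 and 57.6 CPM and the AUF1 libraries 45.3 and 23.6 CPM. The AUF1 libraries lay under the WT libraries in both fractions. Col8a1 fell 3.87-fold in total RNA (log2 -1.95 ± 0.29, edgeR block adjusted p = 0.00258, and 0.0523 without WT total replicate 1). It fell 2.75-fold on polysomes (log2 -1.46 ± 0.28, adjusted p = 0.00995, and 0.116 without AUF1 polysome replicate 1). Col8a2 stood at 38.0 and 5.65 CPM in WT total RNA and at 2.73 and 1.44 CPM in AUF1 total RNA, and at 18.4 and 4.57 CPM against 1.24 and 1.07 CPM on polysomes. It too had no overlap, and its change was the largest of the called collagens. It fell 8.05-fold in total RNA (log2 -3.01 ± 0.54, adjusted p = 0.00709, and 0.0947 without WT total replicate 1). On polysomes it fell 7.92-fold (log2 -2.99 ± 0.56, adjusted p = 0.00861, and 0.0684 without AUF1 polysome replicate 1).

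Type VI collagen builds beaded filaments from 3 main chains and is the collagen whose loss causes a muscular dystrophy. Col6a1 stood at 859.7 and 85.1 CPM against 320.2 and 59.5 CPM in total RNA and at 283.4 and 89.2 CPM against 90.3 and 51.5 CPM on polysomes. Col6a2 stood at 583.3 and 67.4 CPM against 168.7 and 39.6 CPM in total RNA and at 186.0 and 69.7 CPM against 49.1 and 37.4 CPM on polysomes. Both were lower in AUF1 cells within each number, more so within replicate 1, and Col6a2 did not overlap on polysomes. Neither was called in edgeR's block model (adjusted p = 0.172 and 0.0993 in total RNA), while DESeq2 with the block gave 0.0223 for Col6a2. Col6a3, the long chain, stood at 156.5 and 61.6 CPM against 178.7 and 43.1 CPM in total RNA and at 123.7 and 60.8 CPM against 102.2 and 38.8 CPM on polysomes. It showed no common direction in total RNA, with 0.19 within replicate 1 and -0.52 within replicate 2, and its log2 change went from 0.02 in the planned model to -0.13 once the number was added.

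Col18a1, a basement membrane proteoglycan core that is the source of endostatin, stood at 83.0 and 28.02 CPM in WT total RNA and at 387.7 and 49.6 CPM in AUF1 total RNA. On polysomes the WT libraries gave 44.9 and 26.9 CPM and the AUF1 libraries 105.7 and 42.0 CPM. AUF1 was higher within each number, and the groups overlapped since AUF1 replicate 2 lay under WT replicate 1. It rose 3.19-fold in total RNA (log2 1.67 ± 0.44, edgeR block adjusted p = 0.0371) and was not called on polysomes (log2 0.89 ± 0.43, adjusted p = 0.218). The call was lost without AUF1 total replicate 1 (0.309) or WT total replicates 1 (0.315) and 2 (0.183), and in the planned model the direction turned without AUF1 total replicate 1 (log2 -0.20).

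Among the scarcer members, Col23a1, a transmembrane collagen, had 121 and 19 counts in WT total RNA, 25 and 5 in AUF1 total RNA, 146 and 11 on WT polysomes and 18 and 2 on AUF1 polysomes. Replicate 2 of WT had fewer counts than replicate 1 of AUF1 in each fraction, so the groups overlapped. It fell in total RNA (log2 -2.30 ± 0.48, edgeR block adjusted p = 0.0145) and on polysomes (log2 -2.66 ± 0.51, adjusted p = 0.00932). The polysome call was lost without WT polysome replicate 1 (0.178) or AUF1 polysome replicate 1 (0.198), and that in total RNA without AUF1 total replicate 1 (0.200) or WT total replicates 1 (0.154) and 2 (0.0831). Col17a1, a collagen of epithelial anchoring structures, stood at 3.61 and 1.65 CPM against 2.73 and 1.26 CPM in total RNA and at 5.28 and 1.27 CPM against 2.27 and 0.995 CPM on polysomes. It was not called by genotype (adjusted p = 0.542 and 0.185) and is named because it differed by replicate number. The same holds for Col10a1, a collagen of growth plate cartilage, with 16, 1, 11 and 14 counts in the replicate 1 libraries (WT total, AUF1 total, WT polysome, AUF1 polysome) and 0, 2, 0 and 0 in the replicate 2 libraries. Of the other tested members in this class, Col7a1, Col26a1, Col28a1 and Col6a4 had means of 0.252 to 5.15 CPM and were not called.

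The balance between chains that assemble together was compared per kilobase of exon within each library, with no test. The Col1a1 to Col1a2 ratio was 0.526 and 0.243 in WT total RNA, 0.779 and 0.280 in AUF1 total RNA, 0.809 and 0.216 on WT polysomes and 0.604 and 0.265 on AUF1 polysomes. It was thus 0.526 to 0.809 in replicate 1 libraries and 0.216 to 0.280 in replicate 2 libraries, with no such split by genotype. With the longest transcript as length the ratio was 0.103 to 0.386, since the annotated exons of Col1a2 add up to 12.4 kb and its longest transcript is 5.35 kb, so its absolute size depends on the gene model. The Col4a1 to Col4a2 ratio stayed within 0.948 to 1.25 while Col4a1 ranged from 19.3 to 209.4 CPM, and the Col6a1 to Col6a2 ratio within 2.40 to 3.61. With the longest transcript as length these ratios were 1.04 to 1.38 and 1.51 to 2.27. The Col5a3 to Col5a1 ratio was 0.180 and 0.0903 in WT total RNA, 0.468 and 0.160 in AUF1 total RNA, 0.146 and 0.0943 on WT polysomes and 0.428 and 0.144 on AUF1 polysomes, higher in AUF1 within each number. The Col8a1 to Col8a2 ratio was 3.03 to 7.22 in the WT libraries and 7.51 to 20.9 in the AUF1 libraries, and it was higher in AUF1 within each number and fraction.

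**Figure D5:**
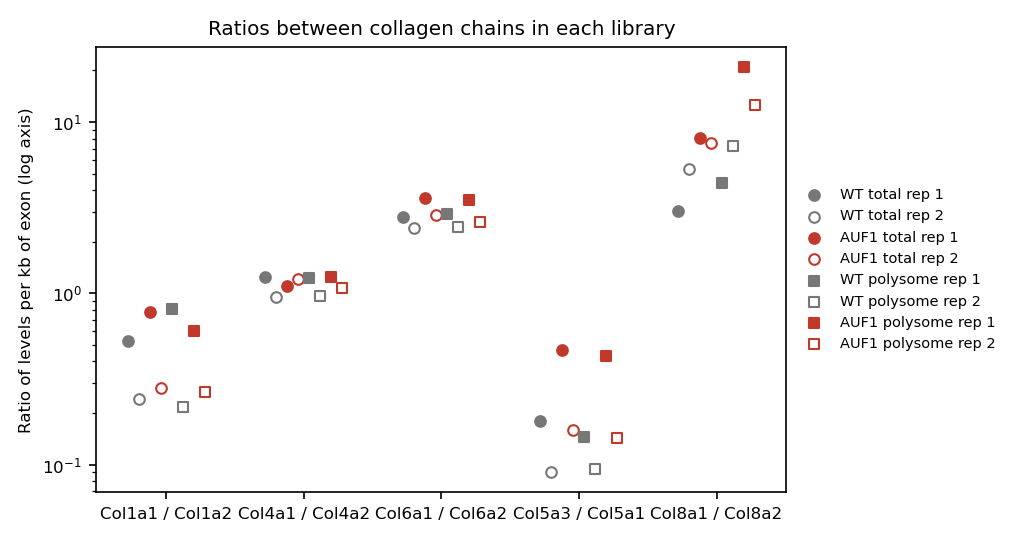
Ratio of levels per kilobase of exon for 5 pairs of collagen chains in each library (y axis, log axis). Filled marks are replicate 1 and open marks replicate 2, gray WT and red AUF1, circles total RNA and squares polysome RNA. Filled and open marks separate for Col1a1 over Col1a2 (0.526 to 0.809 against 0.216 to 0.280), and red and gray marks for Col8a1 over Col8a2.

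Whether collagen mRNAs sat on heavy polysomes to a different degree was tested by polysome against total RNA in each genotype and by the difference between the genotypes. No collagen was called in WT or AUF1 cells or in the difference, by edgeR or DESeq2, with or without the block. The backgrounds in edgeR's block model were 0.0152% of all genes in each genotype and 0% for the difference. In DESeq2 they were 0.228% in WT and 0.22% in AUF1 cells without the block and 1.22% and 1.42% with it. At an unadjusted p under 0.05 edgeR's block model gave 0 collagens in WT, 2 in AUF1 (Col16a1 and Col18a1) and 0 for the difference. Of all 13167 genes 1056 in WT, 1604 in AUF1 and 49 for the difference passed the same limit. The share of collagens was thus below that of all genes in each case. Without AUF1 total replicate 2 the block model called some collagens lower on polysomes than in total RNA of AUF1 cells. That fit has 1 library in a group, and its share of all genes called is not given. With 1 library left out of the block model, the collagen median in AUF1 cells ran from -0.67 to -0.11 on the log2 scale. The median log2 difference of collagens between polysome and total RNA was -0.41 within replicate 1 and 0.06 within replicate 2 in WT, and -0.77 and -0.12 in AUF1 cells, against -0.11 to 0.03 for all genes.

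In replicate 1 Col6a1 and Col6a2 stood well below their total level, with Col6a1 at -1.60 in WT and -1.82 in AUF1 cells and Col6a2 at -1.65 and -1.78. In replicate 2 the same values were 0.07 and -0.21 for Col6a1 and 0.05 and -0.08 for Col6a2, so the difference rested on replicate 1. Col18a1 stood at -1.87 within replicate 1 and -0.24 within replicate 2 in AUF1 cells. For the genotype difference in polysome change, Col12a1 stood at -0.03 ± 0.43 and Col8a2 at 0.02 ± 0.82 in the block model. Col1a1 stood at -0.77 ± 0.45 in the block model, with -1.60 within replicate 1 and -0.01 within replicate 2. All replicate 1 values for WT cells and for the genotype difference use WT polysome replicate 1, the library that stood apart. The median SE of this difference for collagens was 0.60 on the log2 scale, which limits what could be seen.

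More collagens were called by replicate number than by genotype, but the counts are not on equal terms. The number is read over all 4 groups and each genotype comparison over 2, with a median collagen SE of 0.31 against 0.43. Of all genes 29.8% were called by number, against 13.1% by genotype in total and 13.0% in polysome RNA. In the block model 21 of 32 were higher in replicate 1 and 1, Col19a1, lower (log2 -1.51 ± 0.36, edgeR adjusted p = 0.0104), where 20.8% of all genes were higher and 8.98% lower. The collagen median was 1.42 on the log2 scale and that of all genes -0.06. Of the well-measured chains Col5a3 had a 6.59-fold difference (log2 2.72 ± 0.31, adjusted p = 0.000104), Col4a1 5.40-fold (2.43 ± 0.25, adjusted p = 5.51e-05), Col4a2 4.63-fold and Col1a1 4.58-fold. Col12a1 (1.61-fold) and Col1a2 (1.70-fold) had small differences, and Col27a1, Col14a1 and Col7a1 were not called. The split was seen in each group on its own, with 29 of 32 collagens higher in replicate 1 in WT total RNA, 26 in AUF1 total RNA, 28 on WT polysomes and 26 on AUF1 polysomes. In the same groups 46.8% to 55.7% of all genes were higher in replicate 1. The labels do not say what the number stands for. The count fell to 17 without either WT total library and was 21 to 23 without any other single library.

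The summed level of fibroblast markers was lower with AUF1 within each number, as most collagens were, and that of myogenic markers was higher. Of 8 fibroblast markers 5 passed the filter, and their list summed to 647.7 and 113.6 CPM in WT total RNA, 110.7 and 36.8 CPM in AUF1 total RNA, 545.1 and 107.6 CPM on WT polysomes and 114.7 and 29.3 CPM on AUF1 polysomes. In the block model 4 of 5 (Dcn, Mfap5, Pdgfra and Postn) fell with AUF1 in each fraction, Dpt was not called, and all 5 were higher in replicate 1. None of the 8 was at 0 in all libraries. Of 8 myogenic markers 3 (Ckm, Myog and Des) rose with AUF1 in each fraction and 1 was higher in replicate 1. Of all genes 6.99% were called higher with AUF1 in total and 6.7% in polysome RNA, and 20.8% were higher in replicate 1. The list was not uniform, since in each fraction the block model's log2 change was below 0 for 1 of the 8 myogenic markers and above 0 for the others. The summed level was 0.221 to 1.88 CPM for 5 endothelial markers, with Emcn at or near 0, and 0.571 to 1.88 CPM for 5 immune markers, with Emr1 and Ptprc at or near 0. It was 231 to 594 CPM for tendon (Tnmd and Thbs4 at or near 0), 27.0 to 113.3 CPM for cartilage (Acan and Matn1 at or near 0), 51.3 to 112.7 CPM for bone (Bglap and Ibsp at or near 0) and 4512 to 12170 CPM for pericytes and smooth muscle. Of the 11 tested genes of these lists the immune marker Lyz2 fell in each fraction and the tendon marker Mkx on polysomes, where 6.15% and 6.33% of all genes were called lower in total and polysome RNA. The part of any of these cells in the collagen results was not tested.

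The machinery that makes, handles and binds collagen was described with 8 gene lists, whose counts are to be read against the shares of all genes. Of all genes 6.15% were called lower and 6.99% higher with AUF1 in total RNA, 6.33% and 6.70% in polysome RNA, and 20.8% were higher in replicate 1. Of 14 tested enzymes of proline and lysine modification 3 fell in total RNA and 2 on polysomes, with medians of -0.26 and -0.28. They were Leprel2 (a prolyl 3-hydroxylase family member, log2 -1.25 ± 0.30, edgeR block adjusted p = 0.0249), P4ha3 (a prolyl 4-hydroxylase subunit, -1.15 ± 0.28) and, in total RNA, Plod2 (a lysyl hydroxylase, -0.90 ± 0.25). By replicate number 13 of the 14 were higher in replicate 1, with a median of 2.71. Of 12 genes of folding and export 1 rose in each fraction, Tmem38b, an ion channel of the endoplasmic reticulum, a share near that of all genes, and 8 were higher in replicate 1. Among 6 tested genes of procollagen processing Adamts14 rose and Adamts2 fell in each fraction, both N-propeptidases, at log2 2.02 ± 0.34 and -1.01 ± 0.28 in total RNA, and 5 were higher in replicate 1. Of 6 crosslinking enzymes Lox, lysyl oxidase, fell in total RNA (log2 -1.33 ± 0.30, adjusted p = 0.0194) and not on polysomes (-0.95 ± 0.29, adjusted p = 0.0625), and 5 were higher in replicate 1.

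Among the collagen receptors 3 of 7 tested (6.15% of all genes in total and 6.33% in polysome RNA) fell in each fraction, all integrin alpha chains that bind collagen, and 5 were higher in replicate 1. Itga10 stood at 23.5 and 11.4 CPM in WT total RNA and at 3.54 and 2.07 CPM in AUF1 total RNA (log2 -2.60 ± 0.29, edgeR block adjusted p = 0.000766). Itga11 stood at 64.8 and 18.8 CPM against 8.86 and 5.04 CPM (log2 -2.44 ± 0.47, adjusted p = 0.00915), and Itga1 at 2.63 and 1.83 CPM against 0.245 and 0.148 CPM (log2 -3.48 ± 0.53, adjusted p = 0.00311). For these 3 genes both AUF1 libraries lay under both WT libraries, also on polysomes. Of 6 tested genes of degradation, the collagenases Mmp8 and Mmp14 fell in each fraction and Pepd, the peptidase that frees proline, rose, and 3 were higher in replicate 1. Mmp8 had 0 counts in both AUF1 total libraries and 0.770 and 0.457 CPM in WT total RNA, so no fold is given.

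Of 9 tested fibril partners 5 fell in total RNA (6.15% of all genes) and 4 on polysomes (6.33%), with medians of -0.89 and -0.72, and all 9 were higher in replicate 1. The small proteoglycans Dcn (log2 -3.54 ± 0.36, edgeR block adjusted p = 0.000511), Fmod (-2.74 ± 0.44) and Prelp (-1.96 ± 0.36) and the matrix protein Postn (-1.25 ± 0.24) fell in each fraction. This list shares Dcn, Lum, Dpt and Postn with the fibroblast markers. Of 12 basement membrane partners 3 fell in each fraction, with medians of -0.49 and -0.61, and 10 were higher in replicate 1. Lama4 stood at 28.7 and 14.1 CPM in WT total RNA and 2.00 and 1.81 CPM in AUF1 total RNA (log2 -3.44 ± 0.46, edgeR block adjusted p = 0.00152). Lama1 was the one gene of the 8 lists that the planned model also called, with adjusted p = 0.0473 in total RNA and 0.0461 on polysomes. Nid2, nidogen 2, fell by 1.10 on the log2 scale in total RNA.

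AU-rich motifs were counted in the 3′ UTRs because AUF1 binds such sequences, and the shares are given beside those of all genes with no test. In the annotated 3′ UTR of the longest coding transcript, the pentamer ATTTA occurred in 22 of 32 tested collagens (68.8%) and in 69.6% of 11945 tested genes with such a region. The nonamer TTATTTATT, which contains the pentamer, occurred in 4 of 32 (12.5%) and in 8.3%. Both were searched on the transcript strand. Of the 7 collagens that fell in total RNA 5 held the pentamer and 2 (Col12a1 and Col8a1) the nonamer, and both that rose held the pentamer. Among the 15 more abundant collagens, Col1a2, Col5a1, Col6a1, Col6a2, Col4a2 and Col16a1 had no pentamer. Col8a1 had 11 and Col11a1 7, the highest numbers among the tested collagens. Over the 32 collagens Spearman's rho between the block model's log2 change and the pentamers per kilobase was -0.04 in total and 0.08 in polysome RNA, and with the percent of A and U in the 3′ UTR -0.38 and -0.31. These are descriptions over genes that share the same libraries, and genes are not independent replicates. A motif match is not a binding site.

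In the RefSeq promoter windows, 38 entries matched 35 of the 44 collagens. The GC box GGGCGG, searched on both strands, was in 60.5% of these windows and in 35.7% of all 32851 windows of the same length, whose median GC content was 52.7% against 59.8% for the collagens. The E-box CANNTG, the motif bound by myogenic factors among others and read on both strands, was in 52.6% of collagen windows and 72.3% of all. CCAAT was in 34.2% and 37.4%, TATAAA in 13.2% and 13.6%, and the AP-1 motif TGANTCA in 2.6% and 7.8%. The windows of Col8a2, Col4a1 and Col4a2 held no E-box, and that of Col8a1 held 3.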

How the data were processed

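RNA-seq was compared between 4 groups of 2 libraries each of C2C12 cells. The deposited values are counts of reads per gene, unnormalized. Reads were processed with cutadapt, Bowtie, Trimmomatic, STAR and SAMtools on mm10, per the submitters' processing notes. No source used here gives the counting program, its strand setting or its annotation. The 5 summary lines of each library that name no gene were left out, of which reads in no feature made up 6.043% to 7.234%.

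Counts of 23420 genes were filtered with filterByExpr, which left 13167, scaled by TMM and tested with edgeR 4.0.16 (quasi-likelihood, R 4.3.3). All 4 groups entered 1 fit, and p-values were adjusted by Benjamini-Hochberg over all tested genes at 0.05. The planned model had no replicate number. The number was added as a block because genotype changes were to be read within it. DESeq2 1.42.0 was run both ways. An SE is the log2 fold change divided by the square root of F. Changes within a number are differences of log2 CPM with a prior count of 2. The models with and without the block were also run on counts simulated from the block model's own fit. Those counts carry its replicate effect, so they cannot show that the block suits these libraries. Members, gene lists and tests were chosen with earlier results of these data known. The genes described one by one were those with a mean of at least 10 CPM and those called in any comparison. Positions, exon lengths and 3′ UTRs came from GENCODE M21 and promoters from RefSeq, matched by symbol.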

Additional observations from a re-analysis of the deposited data

How the results depend on the processing

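The replicate block decided the genotype calls. Without it edgeR called 0 collagens in both fractions. With the replicate block it called 9 in total and 12 in polysome RNA, 9 and 12 with the block and DESeq2's size factors, and 9 and 13 with the block and no filter, the last 2 settings chosen after seeing the data. DESeq2 called 2 and 3 without the block and 11 and 15 with it. Same-numbered libraries deviated together (r = 0.62 to 0.81 over 13167 genes), but the labels do not say what a number shares. With 1 library left out, with or without the block, the counts ran from 0 to 16 in total and from 0 to 19 in polysome RNA, and from 0 to 5 for polysome against total RNA in AUF1 cells. The share of all genes called in the fits with a library left out is not given. The cause was not tested.

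Of members not called, Col6a3 turned in total RNA, to -0.13 (block, with or without the filter), -0.19 (block with DESeq2's size factors, and DESeq2 with the block) and -0.06 (DESeq2's size factors, and DESeq2 without the block). Col10a1 turned to 0.39 in DESeq2 with the block. With 1 library left out, 14 members changed direction in total RNA without the block and 6 with it, and 7 and 3 in polysome RNA. Over both models their log2 changes in total RNA ran from -4.04 to 3.75 (Col10a1), -1.83 to 0.18 (Col16a1), -1.10 to 0.15 (Col17a1), -0.20 to 2.82 (Col18a1), -2.57 to 0.67 (Col1a1), -2.70 to 0.52 (Col3a1), -2.70 to 1.44 (Col4a1), -2.72 to 1.21 (Col4a2), -1.63 to 0.97 (Col5a1), -1.76 to 1.39 (Col5a2), -1.63 to 3.15 (Col5a3), -3.03 to 1.02 (Col6a1), -3.07 to 0.49 (Col6a2) and -1.38 to 0.71 (Col6a3). In polysome RNA they ran from -5.24 to 5.70 (Col10a1), -1.71 to 0.36 (Col17a1), -2.32 to 0.21 (Col4a1), -1.08 to 0.13 (Col5a1), -1.10 to 0.70 (Col5a2), -0.91 to 1.97 (Col5a3) and -1.25 to 0.21 (Col6a3). Merging all annotated 3′ UTRs of a gene put the pentamer in 71.9% of tested collagens and 71.3% of genes. The collagen repeat in the proteins was not analysed. Members under about 1 CPM rest on few counts, and 2 libraries a group limit every SE.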

Other observations

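The 12 collagens under the filter on low counts had at most 171 counts in any library. Col2a1, the cartilage fibrillar collagen, had its 171 counts in WT polysome replicate 1, and so did the 71 counts of Col4a3, a kidney basement membrane chain, and the 36 counts of Col15a1. Both Col2a1 and Col15a1 were among the 58 genes with at least 30 counts there and at most 6 in any other library. The highest count in any library was 10 for Col9a3, 8 for Col22a1 and Col25a1, 6 for Col4a4, 4 for Col13a1, 2 for Col9a2, 1 for Col9a1 and Col6a5, and 0 for Col6a6.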
